A study of Mus musculus with 6 samples.

Results

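The genes described here encode the myogenic regulatory factors, the paired-box factors that act before them and the MEF2 factors that act with them, in muscle stem cells (MuSCs) of healthy and dystrophic mice. They are the 9 genes with the symbols Pax7, Pax3, Myf5, Myod1, Myog, Myf6, Mef2a, Mef2c and Mef2d, chosen by name, of the 22706 genes in the deposited table. All 9 passed the filter on low values, a mean of at least 5 over the libraries, as did 15915 genes in all. MuSCs are the stem cells that lie beside the muscle fibre and repair it after damage.

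Total RNA of freshly isolated, sorted MuSCs was sequenced after depletion of ribosomal RNA, in 3 groups of 2 libraries. The control group is wild type. The mdx group carries the mdx mutation, which removes functional dystrophin, the protein that links the cytoskeleton of the muscle fibre to its membrane. The Sirt6mKO/mdx group carries the mdx mutation and a deletion of Sirt6, a histone deacetylase, in the muscle lineage. The labels give the strain of every library as C57BL/6, and the methods name a C57BL/10ScSn mdx stock kept on that background. The legends that draw on these data name male mice, with ages between 8 and 16 weeks that differ from legend to legend, and none is tied to a library. The deletion removes exons 4 to 6 through Cre expressed constitutively from the Pax7 promoter, so that Pax7, 1 of the genes described here, is also the gene whose promoter drives the recombinase. MuSCs were enriched by removing cells with Sca1, CD45 or CD31 and sorting on integrin alpha-7 and CD34 or on a fluorescent reporter. The reporters named are GFP of Pax7/zsGreen mice and YFP of mice with the Pax7-driven Cre and a ROSA-YFP allele. Which gate was used for which library is not stated. The methods name biological replicates, but the labels do not tie the libraries to animals. The p-values thus rest only on the spread between these libraries, which for each gene is estimated in part from other genes.

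Before the members, 4 facts of the whole table bear on them. The library size factors recovered from the values lay between 0.5371 and 1.5269, which gives about 4397466 to 9744261 reads assigned to genes per library, and the 10 most abundant genes took 11.7% to 32.6% of the values of a library. Sirt6, the targeted gene, was at 41 and 32 normalized read counts in control, 33 and 40 in mdx MuSCs and 37 and 30 in those labelled Sirt6mKO/mdx, so that its level over the whole gene did not set the libraries labelled as deleted apart. Its exons were not analysed one by one here. Xist, the RNA of the inactive X chromosome, was at 16772 and 12950 in control against 7 and 8 in mdx and 33 and 34 in Sirt6mKO/mdx, and the Y-linked Ddx3y was at 3 and 8 in control against 1024 to 1767 in the other libraries. The values of the libraries labelled control thus go against the male sex that the legends name, and those of the other 4 do not. Genotype and this difference in sex-linked genes cannot be told apart in either comparison with control, while the libraries of mdx and Sirt6mKO/mdx are alike in it. Of 12 MuSC markers other than the members, such as Vcam1, Itga7 and Cdh15, each was above 0 in every library, with summed values from 18446 to 27399. Of 9 endothelial markers, Tek lay at 348 to 669, Pecam1 at 20 to 199 and the other 7 between 0 and 49. Of 8 leukocyte markers in the table, Cd68 read 86 and 88 in control MuSCs against 30 and 26 in mdx MuSCs, Cd79a 21 and 37 against 6 and 9, and Lyz2 0 and 14 against 47 and 26. Ptprc and C1qa were at 0 in control and at 2 to 19 in the other libraries, and the other 3 lay between 0 and 28.

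Muscle is built by a short cascade of transcription factors. PAX3 and PAX7 mark the progenitors and stem cells of the lineage, MYF5 and MYOD commit cells to the myoblast fate, and myogenin, encoded by Myog, starts terminal differentiation. MRF4, encoded by Myf6, is typical of mature fibres, and MEF2 proteins bind A/T-rich sites and activate muscle genes together with the myogenic factors, which bind E-boxes as dimers with E proteins.

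The region before the start of Myog is printed because Myog had the largest change among the members. The window holds the 250 bases before the RefSeq start, at chr1:134289754-134290003 on the plus strand of GRCm38.p6, read 5′ to 3′. Capitals mark E-boxes, searched as CANNTG, and MEF2-type cores, searched as TA, 4 bases that are each A or T, and TA. Both patterns read the same on the 2 strands, and a core of this kind can also be a TATA-like element.
Myog: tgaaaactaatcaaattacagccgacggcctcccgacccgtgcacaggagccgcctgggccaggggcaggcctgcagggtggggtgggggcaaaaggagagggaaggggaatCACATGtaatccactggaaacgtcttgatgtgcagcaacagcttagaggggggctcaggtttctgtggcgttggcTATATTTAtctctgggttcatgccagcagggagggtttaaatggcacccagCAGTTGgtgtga
The Myog window held 2 E-boxes, CACATG from -138 to -133 and CAGTTG from -12 to -7 relative to the start, and 1 MEF2-type core, TATATTTA, from -63 to -56, none of them overlapping. Of 32536 distinct promoter windows of this length, 66.2% held an E-box, 8.53% a MEF2-type core and 5.84% both. The window of Mef2d, the other member with a large change and an entry, lies at chr3:88142122-88142371 on the plus strand and is shown for contrast, since neither pattern was found in these letters.
Mef2d: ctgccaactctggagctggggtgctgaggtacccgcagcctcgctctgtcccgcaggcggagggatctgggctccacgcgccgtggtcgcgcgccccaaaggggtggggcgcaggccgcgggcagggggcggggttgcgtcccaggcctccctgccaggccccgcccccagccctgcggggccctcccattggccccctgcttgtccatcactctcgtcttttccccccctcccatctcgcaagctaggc
RefSeq windows were at hand for 6 of the 9 members. Of the 3 windows of Mef2c, 1 held 2 E-boxes and a core and 1 held an E-box, and the windows of Pax7, Myf5 and Mef2a held neither. Such matches describe the letters only.

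All 9 genes were detected in every library, at levels that differed widely. Values are deposited read counts divided by the library size factor, called normalized read counts here, and genes are compared with each other only per kilobase of exon. Averaged over the 6 libraries, the level per kilobase was 1286 for Myf5, 456 for Pax7, 439 for Myog, 192 for Myod1, 88.6 for Mef2d, 34.5 for Mef2a, 28.4 for Pax3, 25.6 for Myf6 and 6.0 for Mef2c. Of 15750 genes tested and annotated, 98.1% lay below Myf5, 96.5% below Pax7 and 18.8% below Mef2c on this scale. Myf5 was above Pax7 in every library, at 801 to 1564 against 370 to 552. The next neighbours were not separated by their spread, since Myog ranged from 82.9 to 824 and overlapped both Pax7 and Myod1, and Mef2a, Pax3 and Myf6 overlapped each other between 3.96 and 53.5. Myod1, at 135 to 266, was below Pax7 and above Mef2d, at 40.8 to 133, in every library. With the longest transcript as the length, Mef2a, Pax3 and Mef2c stood higher, at 91.5, 45.4 and 15.0, and Mef2a was above Mef2d in both mdx libraries.

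**Figure D1:**
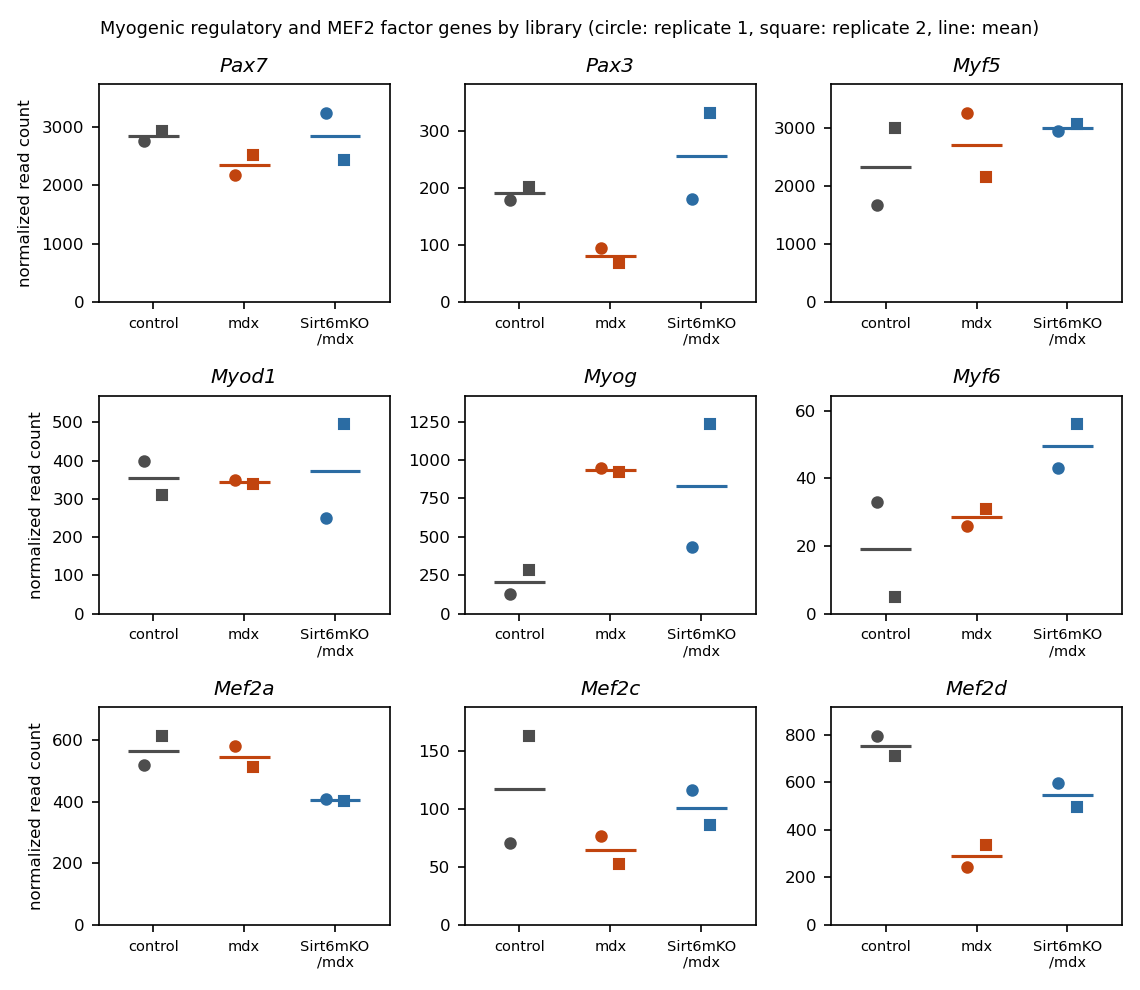
Normalized read count (vertical axis, linear and starting at 0) of each of the 9 genes by group, with replicate 1 as a circle, replicate 2 as a square and the mean of the 2 libraries as a line. Myog is low in both control libraries and at 945 and 920 in mdx, Pax3 and Mef2d are lowest in mdx, and Myod1 and Myf5 overlap between all groups.

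The first comparison asks which of these factors differ in MuSCs of dystrophic muscle. In mdx, Myog rose 4.97-fold over control, while Mef2d fell to 0.381 and Pax3 to 0.425 of their control levels. Pax7, Myf5, Myod1, Myf6, Mef2a and Mef2c did not pass the test. Thus 3 of 9 members were called at a limma adjusted p of at most 0.05 and a log2 fold change of at least 1 in size, against 14.2% of all genes tested, 1 of them higher (6.89% of all genes) and 2 lower (7.34%). The 2 groups had no overlap in 4 of the 9 genes, which were the called genes and Pax7, against 57% of all genes.

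Pax7, the defining gene of adult MuSCs (chromosome 4, 139737062 to 139833528, minus strand, GENCODE M21), was at 2754 and 2932 in control MuSCs, 2167 and 2521 in mdx MuSCs and 3236 and 2433 in Sirt6mKO/mdx. The mdx libraries were both below control and Sirt6mKO/mdx replicate 2 lay within the mdx range. The means were 2843 ± 126 (SD, n = 2), 2344 ± 250 and 2834 ± 568, and the log2 fold change of mdx against control was -0.28 (SE 0.28, 95% interval -0.88 to 0.32, limma adjusted p 0.537). Between Sirt6mKO/mdx and mdx it was 0.26 (-0.34 to 0.86). Both intervals span 0, and neither value was called.

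Pax3, the paralogue of Pax7 and a factor of embryonic progenitors that only part of adult MuSCs keep (chromosome 1, 78101267 to 78197134, minus strand), was at 178 and 202 in control MuSCs, 94 and 68 in mdx MuSCs and 180 and 331 in Sirt6mKO/mdx. Both mdx libraries lay below the other 4, and Sirt6mKO/mdx replicate 2 was the highest of all. Pax3 fell in mdx by 1.24 on the log2 scale (SE 0.34, limma adjusted p 0.0216) and rose from mdx to Sirt6mKO/mdx by 1.60 (SE 0.34, limma adjusted p 0.0092), and the 2 comparisons share the mdx libraries. The first call was lost when any 1 control or mdx library was left out, with a log2 fold change from -1.47 without mdx replicate 1 to -1.005 without mdx replicate 2. The second was lost without mdx replicate 2 (1.37) and without Sirt6mKO/mdx replicate 2 (1.16), and after scaling to the total of the values (0.98). Per kilobase, Pax3 made up 5.77% and 6.13% of the summed PAX level of control MuSCs, 3.95% and 2.49% for mdx and 5.0% and 11.4% for Sirt6mKO/mdx. In such bulk libraries, fewer cells with Pax3 and less Pax3 RNA per cell cannot be told apart.

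Neither determination factor passed the test in any comparison. Myf5 (chromosome 10, 107482908 to 107486134, minus strand) was at 1669 and 2990 in control MuSCs, 3258 and 2146 in mdx MuSCs and 2945 and 3061 in Sirt6mKO/mdx, with the 2 control libraries spanning most of the range. Myod1 (chromosome 7, 46376474 to 46379092, plus strand) was at 400 and 310 in control MuSCs, 349 and 339 in mdx MuSCs and 251 and 495 in Sirt6mKO/mdx. The groups overlapped in all 3 comparisons for both genes. The log2 fold changes of Myf5 lay between 0.18 and 0.43 with SE 0.33, and those of Myod1 between -0.03 and 0.04 with SE 0.31. The 95% intervals of Myod1 were -0.69 to 0.62 in mdx against control and -0.62 to 0.69 in Sirt6mKO/mdx against mdx. They hold only for this scaling and for a spread estimated in part from other genes. Scaling to the total of the values gave -0.59 for Myod1 in Sirt6mKO/mdx against mdx. Leaving out 1 library moved Myod1 in Sirt6mKO/mdx against mdx to 0.52 without Sirt6mKO/mdx replicate 1 and to -0.45 without replicate 2.

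Myog, the differentiation factor (chromosome 1, 134290004 to 134292547, plus strand), was at 124 and 281 in control MuSCs, 945 and 920 in mdx MuSCs and 432 and 1232 in Sirt6mKO/mdx. Every library with the mdx mutation was above both control libraries, and the Sirt6mKO/mdx libraries lay on either side of the mdx values. The means were 202 ± 111 in control, 932 ± 17.7 in mdx and 832 ± 566 in Sirt6mKO/mdx (SD, n = 2). Myog rose by 2.31 on the log2 scale in mdx (SE 0.42, 95% interval 1.42 to 3.21, limma adjusted p 0.0017). On the same scale the rise came to 1.73 when control replicate 1 was left out and to 2.90 when control replicate 2 was, and the call held without any 1 library. It was lost with no minimum mean, with 1 prior variance for all genes and with a robust prior variance, at adjusted p-values of 0.0704, 0.0979 and 0.0655.

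Myf6 (chromosome 10, 107492860 to 107494729, minus strand), the neighbour of Myf5 with 6725 bases between the 2 genes, was at 33 and 5 in control MuSCs, 26 and 31 in mdx MuSCs and 43 and 56 in Sirt6mKO/mdx. The 2 Sirt6mKO/mdx libraries were the highest and control replicate 2 was far below the rest. The log2 fold change in mdx was 1.04 (SE 0.72, limma adjusted p 0.353) and against control in Sirt6mKO/mdx 1.81 (SE 0.72, limma adjusted p 0.138), neither called. The control libraries decide these values, since without control replicate 1 the fold changes were 2.29 and 3.06 and both were called, and without control replicate 2 they were -0.21 and 0.56.

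Within the family of 4 myogenic regulatory factors Myog took a larger share in every library with the mdx mutation than in control. This share of the summed level per kilobase was 7.37% and 10.5% in control MuSCs, 26.3% and 33.2% in mdx MuSCs and 15.4% and 31.6% in Sirt6mKO/mdx. Myf5 made up most of the sum in every library, with 71.2% and 80.0% in control MuSCs, 65.1% and 55.6% in mdx MuSCs and 75.5% and 56.4% in Sirt6mKO/mdx. The log2 ratio of Myog to Myod1, which does not depend on the scaling of the libraries, was -1.69 and -0.14 in control, 1.44 in each mdx library and 0.78 and 1.32 in Sirt6mKO/mdx. It was below 0 in both control libraries and above 0 in the other 4, which is given as a description and was not tested. The log2 ratio of Myod1 to Pax7 lay between -3.24 and -2.78 in control, between -2.90 and -2.63 in mdx and at -3.69 and -2.30 in Sirt6mKO/mdx, with overlap of the groups.

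**Figure D2:**
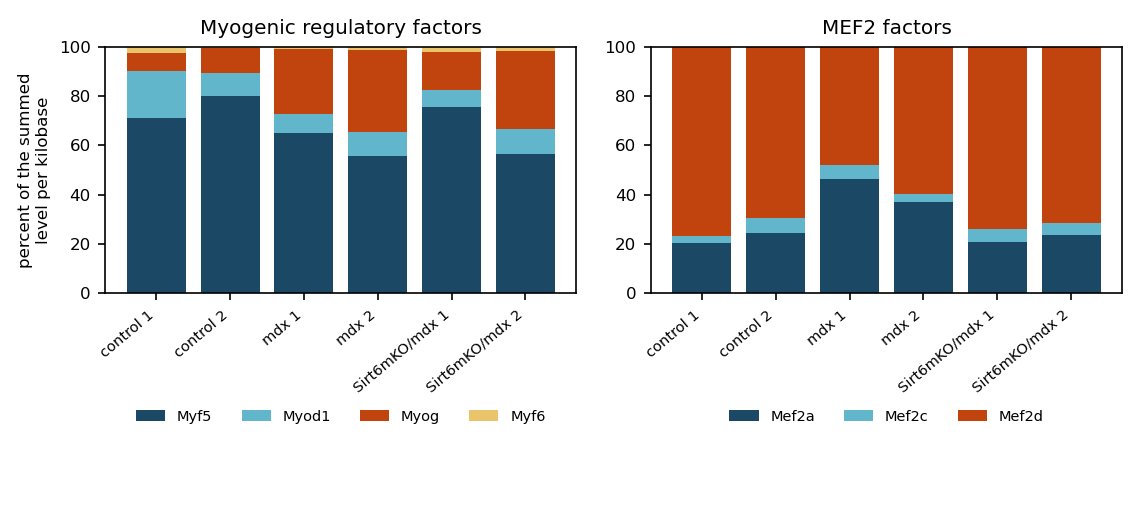
Share of each gene in the summed level per kilobase (vertical axis, percent) of the 4 myogenic regulatory factors (left) and the 3 MEF2 factors (right), 1 stacked bar per library. The Myog segment is 7.37% and 10.5% in the control libraries and 26.3% and 33.2% in mdx, and the Mef2d segment is smallest in the 2 mdx libraries.

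Of the MEF2 genes, only Mef2d was called in mdx against control. Mef2d (chromosome 3, 88142372 to 88172086, plus strand) was at 796 and 713 in control MuSCs, 244 and 336 in mdx MuSCs and 597 and 497 in Sirt6mKO/mdx, and the 3 groups did not overlap. Mef2d fell in mdx by 1.39 on the log2 scale (SE 0.25, 95% interval -1.93 to -0.85, limma adjusted p 0.0018). Leaving out any 1 library kept this call, with fold changes from -1.62 to -1.16. Between Sirt6mKO/mdx and mdx it had an adjusted p of 0.0348 in limma but a log2 fold change of 0.93 (SE 0.25), under the minimum of 1, so that it was not called. It was called there in 0 of 15 alternatives. Its log2 fold change was 0.30 with the total of the values as the scale (limma adjusted p 0.498). Leaving out 1 library moved it to between 0.695 and 1.155. Against control Mef2d was at -0.47 (SE 0.25, limma adjusted p 0.282). Of its exonic bases, 531, or 8.87%, overlap the antisense gene 1700113A16Rik, which was at 5 to 11 in all libraries, and reads that overlap more than 1 gene were not counted.

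Mef2a (chromosome 7, 67231163 to 67372858, minus strand) was at 518 and 614 in control MuSCs, 582 and 512 in mdx MuSCs and 409 and 404 in Sirt6mKO/mdx. Both Sirt6mKO/mdx libraries lay below the other 4, but the log2 fold changes of -0.42 against mdx (SE 0.24, limma adjusted p 0.289) and -0.47 against control (SE 0.24, limma adjusted p 0.247) did not pass. With the total of the values as the scale, Mef2a was called lower in both, at -1.051 and -1.075 (limma adjusted p 0.0163 and 0.0157). Of its exonic bases, 302, or 2.06%, overlap Lysmd4, which was at 36 to 87. Mef2c (chromosome 13, 83504034 to 83667079, plus strand), which with Mef2a and Mef2d makes up the MEF2 genes of skeletal muscle, was at 71 and 163 in control MuSCs, 77 and 53 in mdx MuSCs and 116 and 86 in Sirt6mKO/mdx. Its control libraries spanned the whole range except 1 mdx library, and its log2 fold changes of -0.74, 0.64 and -0.11 had SE 0.42. In mdx against control Mef2c was at -1.34 without control replicate 1 and at -0.15 without control replicate 2. In Sirt6mKO/mdx against mdx it was at 0.017 with the total of the values as the scale. The summed level of the 3 genes per kilobase was 173 and 171 in control MuSCs, 85.3 and 94.4 in mdx MuSCs and 135 and 116 in Sirt6mKO/mdx. Mef2d made up 77.0% and 69.5% of it in control MuSCs, 47.8% and 59.5% in mdx MuSCs and 73.9% and 71.6% in Sirt6mKO/mdx, the smallest shares being those of the mdx libraries. With the longest transcript as the length these shares were 58.4% and 49.1% in control MuSCs, 27.8% and 38.1% in mdx MuSCs and 54.6% and 51.5% in Sirt6mKO/mdx. Mef2a then had the largest share in the mdx libraries, with 64.6% and 56.7%.

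The second comparison asks which factors differ when Sirt6 is deleted on the mdx background. Pax3 was the only one of the 9 members called, higher in Sirt6mKO/mdx with a fold of 3.03, against 8.17% of all genes called in either direction and 5.62% called higher. No member was called lower in limma, against 2.54% of all genes, and 2 of 9 members, Pax3 and Mef2d, had an unadjusted p under 0.05, as did 25.2% of all genes. With the libraries scaled to the total of the values, Pax3 was not called and Mef2a was called lower instead (-1.05, limma adjusted p 0.0163). The groups did not overlap for 5 of the 9, which were Pax3, Myf6, Mef2a, Mef2c and Mef2d, against 56% of all genes. Myog had a log2 fold change of -0.35 (SE 0.42, 95% interval -1.25 to 0.54, limma adjusted p 0.647), which was 0.40 without Sirt6mKO/mdx replicate 1 and -1.11 without replicate 2. The direction of Myog in this comparison thus depended on which of the 2 libraries, at 432 and 1232, was kept.

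The third comparison sets Sirt6mKO/mdx against control. Myog was the only member called, against 7.87% of all genes, and rose by 1.96 on the log2 scale (SE 0.42, limma adjusted p 0.0097), or 3.89-fold. It was called higher, as were 5.19% of all genes, and no member was called lower in limma, against 2.68% of all genes. With the libraries scaled to the total of the values, Mef2a (-1.075, limma adjusted p 0.0157) and Mef2d (-1.071, limma adjusted p 0.0184) were also called, both lower. An unadjusted p under 0.05 was found for 2 of 9 members, Myog and Myf6, and for 24.1% of all genes. The groups did not overlap for 4 of 9, Myog, Myf6, Mef2a and Mef2d, against 51.6% of all genes. The call of Myog was lost without control replicate 1 (1.37) and without Sirt6mKO/mdx replicate 2 (1.206). Pax3 was at 0.36 (SE 0.34) and Mef2d at -0.47 here, with intervals from -0.36 to 1.08 and from -1.01 to 0.08.

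**Figure D3:**
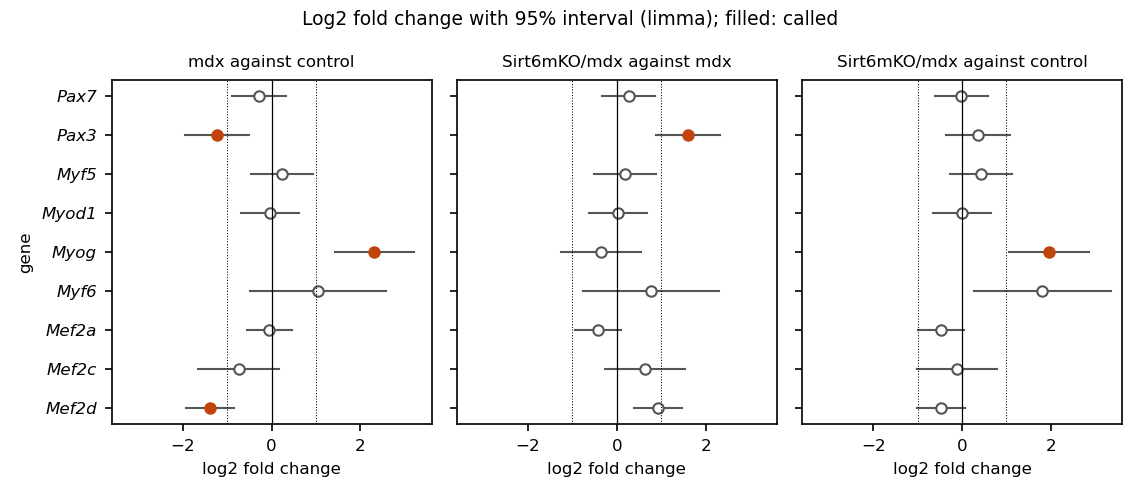
Log2 fold change on the scale of log2(value + 1) (horizontal axis) of the 9 genes in the 3 comparisons, with bars for the 95% interval of limma, filled points for called genes and dotted lines at -1 and 1. Pax3 and Mef2d are called lower and Myog higher in mdx against control, Pax3 is called higher in Sirt6mKO/mdx against mdx, and Myog is called higher in Sirt6mKO/mdx against control.

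Genes that act beside these factors were taken from lists of known regulators, and the counts of each list stand against the 14.2%, 8.17% and 7.87% of all genes called in the 3 comparisons. Of the E proteins Tcf3, Tcf4 and Tcf12, the dimer partners of the myogenic factors, 0 were called by limma or voom in any of the 3 comparisons, with sums from 2634 to 3850. An unadjusted p under 0.05 was found for 1, 1 and 0 of them in the order of the comparisons above. Tcf12 was at 781 and 964 in control MuSCs, 1667 and 1534 in mdx MuSCs and 802 and 998 in Sirt6mKO/mdx. Tcf3 and Tcf4 overlapped between control and mdx. With protein-coding scaling 1 E protein was called higher in mdx. With the total of the values as the scale 1 E protein was called lower in each comparison of Sirt6mKO/mdx. Without control replicate 2, 1 E protein was called, higher in mdx than control.

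Inhibitors of the myogenic bHLH factors moved in both directions. Of 15 tested, 3 were lower and 2 higher in mdx by the rule for a call, with a median log2 fold change of -0.07 against 0.00 for all genes. These were 2 lower and 1 higher without control replicate 1 or mdx replicate 2, and 3 lower and 0 higher without mdx replicate 1. ID proteins bind E proteins and keep them from the myogenic factors, and Id3 fell by 2.09 (SE 0.31, limma adjusted p 0.00035), from 2646 and 2177 to 753 and 419. Id1 fell by 1.70 (SE 0.41, limma adjusted p 0.011), a value that was -1.14 without mdx replicate 2 and -1.07 without control replicate 1 and then not called. Bhlhe40, a repressor that also interferes with MYOD, fell by 2.76 (SE 0.29, limma adjusted p 1.6e-05), and Snai2, a repressor at E-boxes, rose by 1.29 (SE 0.34, limma adjusted p 0.0168), a call lost without control replicate 1 or either mdx library. From mdx to Sirt6mKO/mdx 5 were called higher and 0 lower, among them Id1 (2.23), Id3 (1.94), Bhlhe40 (1.53) and the Notch target Hes1 (1.31), while scaling to the total of the values gave 2 higher and 3 lower. The count of 5 was 1 without mdx replicate 2 or Sirt6mKO/mdx replicate 2 and 3 without mdx replicate 1 or Sirt6mKO/mdx replicate 1. At 0 in both mdx libraries was Twist2, the only listed inhibitor not tested. Against control, Hes1 (1.07) and Id2 (1.04) were called higher and Bhlhe40 (-1.23) lower in Sirt6mKO/mdx, and none of the list was called without Sirt6mKO/mdx replicate 2. The call of Id2 held in 5 of 15 alternatives, with values from 0.44 to 1.52, and that of Hes1 in 8 of 15, from 0.465 to 1.36.

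Of 15 tested regulators and cofactors of MEF2, 2 rose and 1 fell in mdx, against 6.89% and 7.34% of all genes. Smarcd3, a subunit of the SWI/SNF chromatin remodeler, rose by 1.36 (SE 0.36, limma adjusted p 0.0183), Mamstr, a MEF2 coactivator, by 1.06 (SE 0.28, limma adjusted p 0.019), and Vgll2, a cofactor of TEAD factors, fell by 1.05 (SE 0.33, limma adjusted p 0.0398), a call that held in 6 of 15 alternatives and not under either other scaling or with a pseudocount of 0.1. In Sirt6mKO/mdx against mdx, Vgll2 (1.29) and Hdac5 (1.01), a class II deacetylase that represses MEF2, were called higher, but scaling to the total of the values gave 0 higher and 1 lower. Against control 0 were called by limma or voom, with 2 at an unadjusted p under 0.05, and 1 was called higher without control replicate 1 or with protein-coding scaling, and 1 lower with the total of the values as the scale. Each of these calls was lost without at least 1 library, and in both comparisons with mdx no gene of this list was called without mdx replicate 1 or without mdx replicate 2.

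Of 5 genes linked to PAX3 and PAX7, Itm2a and Met rose in mdx. Met, the receptor of hepatocyte growth factor, was at 562 and 524 in control MuSCs, 1489 and 1486 in mdx MuSCs and 610 and 821 in Sirt6mKO/mdx, a log2 fold change of 1.453 in mdx (SE 0.245, limma adjusted p 0.00098) and of -1.07 between Sirt6mKO/mdx and mdx (SE 0.245, limma adjusted p 0.0143). The second call of Met was lost without any 1 of the 4 libraries compared. Itm2a, a membrane protein, was at 1548 and 1659 in control MuSCs, 8207 and 6919 in mdx MuSCs and 4923 and 9612 in Sirt6mKO/mdx. It rose by 2.23 in mdx (SE 0.35, limma adjusted p 0.00058) and was also called against control in Sirt6mKO/mdx, at 2.10, but not without Sirt6mKO/mdx replicate 2. Both genes were above control in each mdx library, whereas Pax3 was below control there and Pax7 was not called.

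Among 30 genes induced in myogenic differentiation, 4 were called higher and 7 lower in mdx, with a median log2 fold change of -0.52. Acta1 and Ckm of this list are also among the myofibre markers. Tnnt2, a troponin T of embryonic muscle, rose by 3.88 (SE 0.75, limma adjusted p 0.0026), from 2 and 19 to 103 and 124, with values from 2.51 to 5.25 over the alternatives. This call held in 12 of 15 alternatives and not without mdx replicate 2. Cdkn1c, a cyclin-dependent kinase inhibitor of cells that leave the cycle, rose by 3.48 (SE 0.43, limma adjusted p 7.6e-05), from 57 and 180 to 1218 and 1072. Its values over the alternatives were 2.66 to 4.30. Cdkn1a, another inhibitor of this kind, fell by 1.89 (SE 0.29, limma adjusted p 0.00042), and Acta1, the actin of the adult fibre, by 1.71 (SE 0.42, limma adjusted p 0.0127). The call of Acta1 held in 9 of 15 alternatives and was lost, among others, without either control library, without mdx replicate 2 and with a robust prior variance, with values from -2.46 to -0.955. From mdx to Sirt6mKO/mdx, Acta1 (1.55), Neb (1.20) and Cdkn1a (1.17) were called higher and Chrna1, a subunit of the acetylcholine receptor, lower (-1.20). Against control Tnnt2 (2.72) and Cdkn1c (2.18) were called higher and Ncam1 (-1.64) lower. The call of Tnnt2 there held in 4 of 15 alternatives, with values from 1.35 to 4.08, and was lost without control replicate 1 or any 1 of the mdx and Sirt6mKO/mdx libraries. In mdx against control the counts were 3 higher and 8 lower without control replicate 1, 1 and 1 without mdx replicate 2, 2 and 3 without mdx replicate 1, and 5 and 2 without control replicate 2. From mdx to Sirt6mKO/mdx they were 0 higher and 6 lower after scaling to the total of the values, 2 and 0 without mdx replicate 1, and no gene was called without mdx replicate 2. No call between Sirt6mKO/mdx and mdx was left without either Sirt6mKO/mdx library, and none against control without Sirt6mKO/mdx replicate 2.

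Other gene groups moved with the members between the same libraries. The 15 myofibre markers summed to 10862 and 16000 in control MuSCs, 3273 to 7765 in mdx MuSCs and 9278 to 17122 in Sirt6mKO/mdx, and none was at 0 in any group. Of these, 6 were called lower in mdx against control and 6 higher in Sirt6mKO/mdx against mdx, counts that were 2 and 0 without mdx replicate 2, while 10 and 8 were called without mdx replicate 1. With a robust prior variance both counts were 1, with no minimum mean 1 and 0, and with the replicate number as a block 10 and 11. The second count was also 0 without Sirt6mKO/mdx replicate 1 and 1 without replicate 2. Of 23 immediate early and dissociation response genes, such as Atf3, Nr4a1 and Dnajb1, 22 were called lower in mdx than control and 22 higher in Sirt6mKO/mdx than mdx, with medians of -2.74 and 2.70, although 0 of the second 22 were called with 1 prior variance for all genes. Their sum was 179207 and 201054 in control MuSCs, 24787 to 27681 in mdx MuSCs and 134190 to 140418 in Sirt6mKO/mdx, and 2 of these genes were called lower in Sirt6mKO/mdx than control, or 0 without control replicate 2 or either Sirt6mKO/mdx library. The sum was lowest in the same 2 libraries as Pax3 and Mef2d. Of 10 proliferation genes, 6 were called higher in mdx, where they summed to 971 and 1621 against 218 to 318 in control, and Mki67 was at 252 and 548 against 39 and 80. The count of 6 was 3 without either mdx library. In Sirt6mKO/mdx these genes summed to 390 and 732, and 3 were called lower than in mdx, a count of 0 without any 1 mdx or Sirt6mKO/mdx library. Against control 1 of them was called higher there, 0 without control replicate 2, without either mdx library or without Sirt6mKO/mdx replicate 2, or 3 with the replicate number as a block. Of the myofibre markers 0 were called against control by limma or voom, with 0 at an unadjusted p under 0.05, but 1 was called higher with the replicate number as a block. The part of these groups in the differences of Myog, Pax3 and Mef2d was not tested.

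**Figure D4:**
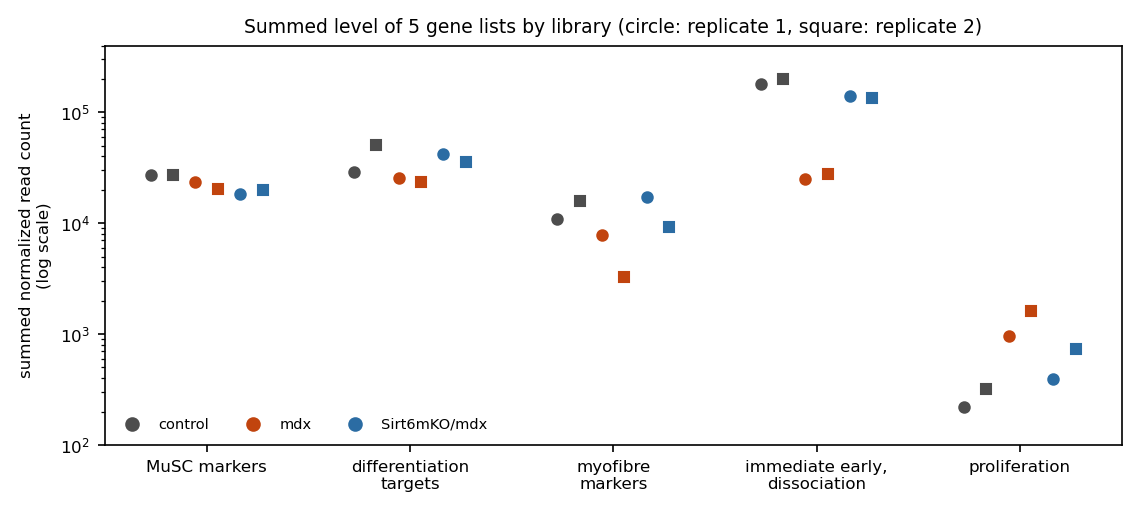
Summed normalized read count (vertical axis, log scale) of 5 gene lists in each library, with circles for replicate 1, squares for replicate 2 and colours for the group. The immediate early and dissociation response list lies between 24787 and 27681 in mdx and at 134190 or more in the other 4 libraries, and the proliferation list is highest in mdx.

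Of the other lists, 10 fibro-adipogenic markers had 2 called higher and 0 lower in mdx, 0 and 1 in Sirt6mKO/mdx against mdx and 0 by limma or voom against control, where 2 had an unadjusted p under 0.05, with sums from 26958 to 46187. With the total of the values as the scale, 2 were called lower against mdx and 1 lower against control. The 2 were 1 without control replicate 1, either mdx library or Sirt6mKO/mdx replicate 2, and the 1 was lost without any of the 4 libraries compared. Of 7 endothelial markers tested, 2 were called lower in mdx and 0 by limma or voom in the other comparisons, where 3 and 0 had an unadjusted p under 0.05. The 2 were 0 without control replicate 1 or mdx replicate 1 and 1 without any other library, and 1 was called higher in Sirt6mKO/mdx against mdx without control replicate 1. After scaling to the total of the values 1 was called lower against control. Their sums were 821 to 923 in control, 444 to 450 in mdx and 655 to 659 in Sirt6mKO/mdx. Of 6 leukocyte markers 1 was called higher and 1 lower in mdx and 1 higher in Sirt6mKO/mdx against control. In Sirt6mKO/mdx against mdx 0 were called by limma or voom, with 2 at an unadjusted p under 0.05, but 1 was called higher with a robust prior variance, with the replicate block and without control replicate 1. None of them was called in mdx without control replicate 1 or either mdx library, and none against control in Sirt6mKO/mdx without control replicate 1 or any 1 mdx or Sirt6mKO/mdx library. Of 4 Schwann cell markers 0 were called by limma or voom, with 0, 1 and 1 at an unadjusted p under 0.05. In Sirt6mKO/mdx, however, scaling to the total of the values called 2 lower against mdx and 1 lower against control, and a robust prior variance 1 lower against mdx. Of 8 smooth muscle and pericyte markers 1 was called higher and 1 lower in mdx and 1 lower in Sirt6mKO/mdx against control. Against mdx 0 were called by limma or voom, with 2 at an unadjusted p under 0.05, but 2 were called lower with the total of the values as the scale. There 1 was called lower with protein-coding scaling, a minimum mean of 50, a robust prior variance, the replicate block or without either control library. The first counts were 0 without control replicate 1 or mdx replicate 2, and the last was 0 without any 1 control or Sirt6mKO/mdx library. Of 2 erythroid markers tested 1 was called, higher in Sirt6mKO/mdx than mdx, and not without any 1 of these 4 libraries. Of the 12 MuSC markers 2 were called lower in mdx, Sdc4 and Chrdl2, 1 higher (Sdc4) and 1 lower (Sdc3) in Sirt6mKO/mdx against mdx, and 4 lower against control. The 2 calls in mdx held without any 1 library. Scaling to the total of the values gave 0 higher and 5 lower against mdx. Against mdx no MuSC marker was called without mdx replicate 2 or either Sirt6mKO/mdx library, and Sdc3 was not called without mdx replicate 1. The 4 against control were 0 without Sirt6mKO/mdx replicate 2, 1 without Sirt6mKO/mdx replicate 1 or control replicate 2, and 2 without mdx replicate 2. The syndecan Sdc4 was at 7692 and 6224 in control MuSCs, 1100 and 1049 in mdx MuSCs and 2753 and 2822 in Sirt6mKO/mdx.

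For each member called at least once, the genes with the most similar course over the 6 libraries were sought among 9666 genes with a mean of at least 50, by the root mean square difference of centred log2 values. The nearest to Pax3 were Clp1 (0.123), Slc2a4 (0.152) and Meis2 (0.166), with Clp1 at 119 and 130 in control MuSCs, 72 and 54 in mdx MuSCs and 132 and 212 in Sirt6mKO/mdx. For Mef2d they were Chd1 (0.096), Gm17296 (0.098) and Prex1 (0.105), with Chd1 at 1526 and 1578, 559 and 653, and 1268 and 1095 in the same order. Nearest to Myog were Mycl (0.209), Slc38a4 (0.221) and Ccdc23 (0.238), and Mycl was at 21 and 32 in control MuSCs, 128 and 115 in mdx MuSCs and 71 and 168 in Sirt6mKO/mdx. The libraries are the same for all of these genes, and the measure describes 6 values only.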

How the data were processed

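MuSC libraries were prepared by the authors with an Ion Total RNA-Seq kit after RiboMinus depletion, trimmed with Reaper, aligned to mm10 (GRCm38) with STAR (2.4.2a per the submitters' processing notes) and counted per gene with featureCounts 1.4.5-p1. Reads in several genes or places were left out, and the use of strand is not given in the sources used here. The deposited values are a rounded score: read counts divided by the library size factors of DESeq2, as 1 column per library, so a count test was not used. Size factors were recovered from the spacing of the values (tested on 4 simulated libraries). Values were tested as log2(value + 1) with limma 3.58.1 in R 4.3.3, all 6 libraries in one fit, a prior variance that follows the mean, two-sided, with Benjamini-Hochberg adjustment over 15915 genes. On simulated data for mdx against control with 15987 genes tested, 115 of 200 changed genes were recovered, 62 of 62 at 8-fold, with 0 false calls. The simulation used the same dispersion for every gene, so its 0 false calls do not measure the error on these data. Called means an adjusted p of at most 0.05 and a log2 fold change of at least 1 in size. Shared annotation (GENCODE M21) covered 98.5% of genes. Promoter windows are those of RefSeq on GRCm38.p6.

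The members and lists were chosen with earlier results of these data known. Named genes are the members, the E proteins, Sirt6, Xist, Ddx3y and Mki67. From lists of regulators and targets, up to 4 called genes per comparison with a mean of at least 50 and the largest fold change are named. Lists of other cells are given by counts. Their markers near 0, list examples and some markers that differed between replicates are named. Alternatives covered scaling (the total of the values and, added after seeing the data, of protein-coding values), pseudocount (0.1), minimum mean (none, 50), the prior variance, voom, a replicate block and leaving out each library. A further list of regulators is not reported here.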

Additional observations from a re-analysis of the deposited data

How the results depend on the processing

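Over the 3 comparisons, leaving out 1 library in turn gave 2 to 3 members called in mdx against control, 0 to 1 in Sirt6mKO/mdx against mdx and 0 to 1 in Sirt6mKO/mdx against control, and 921 to 2326, 252 to 1541 and 212 to 1416 genes called among all tested. With no minimum mean the members called were 1, 0 and 0 and all genes called 989, 168 and 221. With 1 prior variance for all genes they were 0, 0 and 0, and 541, 0 and 87, with 4204, 3156 and 3157 genes at an unadjusted p under 0.05. A robust prior variance gave 0 members called in Sirt6mKO/mdx against control. Scaling to the total of the values gave 3 members called against control in Sirt6mKO/mdx (Myog, Mef2a and Mef2d) and 3411 and 3147 genes called in its comparisons with mdx and control. Against mdx it left 1 member called, Mef2a (-1.05, lower) in place of Pax3. It moved the median of all genes there to -0.58 in both and the share of calls that were higher from 68.8% and 65.9% to 14.0% and 14.5%. Scaling to protein-coding values moved the medians against control to 0.16 in mdx and 0.17 in Sirt6mKO/mdx, and the higher share from 48.4% and 65.9% to 62.1% and 81.3%. The cause of these shifts was not tested. With no minimum mean, 18 immediate early genes and no gene of the other lists were called in Sirt6mKO/mdx against mdx.

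The direction turned only for members that were not called in that comparison. In mdx against control, scaling to protein-coding values turned Myod1 (0.13) and Mef2a (0.12). In Sirt6mKO/mdx against mdx, the total of the values turned Pax7 (-0.36), Myf5 (-0.44) and Myod1 (-0.59). Against control it turned Pax3 (-0.24), Myf5 (-0.18) and Myod1 (-0.60), protein-coding values turned Pax7 (0.15) and Mef2c (0.063), and voom turned Myod1 (-0.003). Leaving out 1 library gave, in mdx against control, ranges of -0.18 to 0.66 for Myf5, -0.22 to 0.15 for Myod1, -0.21 to 2.29 for Myf6 and -0.17 to 0.075 for Mef2a. In Sirt6mKO/mdx against mdx they were -0.12 to 0.48 for Myf5, -0.45 to 0.52 for Myod1 and -1.11 to 0.40 for Myog. Against control they were -0.22 to 0.19 for Pax7, -0.075 to 0.80 for Pax3, -0.49 to 0.49 for Myod1 and -0.70 to 0.49 for Mef2c. Where a group is left with 1 library, it is assumed to vary like the others.

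The deviations of libraries of the same number from their group means had correlations of -0.04 (control and mdx), 0.22 (control and Sirt6mKO/mdx) and 0.05 (mdx and Sirt6mKO/mdx) over 9666 genes. They were thus over 0.1 in 1 of 3 pairs of groups, and the number was not taken as a pairing. With the replicate number as a block, 3, 1 and 1 members and 2415, 1510 and 1404 genes were called, and no call of a member changed. At these depths Myf6, at 5 to 56, and Mef2c, at 53 to 163, rest on few reads.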
